A study of Mus musculus with 4 samples.

Results

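Genes that mark eosinophils, basophils and mast cells were followed in mouse bone marrow after an injection of lipopolysaccharide (LPS), a glycolipid from the outer membrane of Gram-negative bacteria. The 10 genes were taken by name: Ccr3, Ccl24, Epx, Prg2, Prg3, Siglecf, Il5ra, Mcpt8, Cpa3 and Cd200r3. All 10 were measured, each by 1 probe set that names no other gene, among 19938 genes. Bone marrow cells came from C57BL/6N mice that had received PBS (2 arrays) or 50 µg LPS (2 arrays) once into the peritoneum, the LPS being an equal mixture from E. coli K12 and S. minnesota. Cells were taken 8 h later. Both groups had the same strain, tissue and time, while the sources used here do not give the age or sex of the mice, or how many stood behind each sample. RNA of each sample was hybridised to 1 GeneChip array of the type Mouse Gene 1.0 ST. The study named Angptl4 in its title and asked what acute inflammation changes in marrow.

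Eosinophils are granulocytes that mature in bone marrow under interleukin-5 and carry granules of basic proteins and a peroxidase. The chemokine receptor CCR3 guides them towards the eotaxins, of which CCL24 is one. Basophils also leave the marrow as finished cells, whereas mast cells leave as precursors and fill their granules with proteases in the tissues. In bulk marrow such cells are a minority, and fewer cells of a type cannot be told apart from less RNA per cell.

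The values are log2 expression, so a difference of 1 is a doubling. The median over genes lay between 8.01 and 8.03 on the 4 arrays, and the lower quartile between 6.66 and 6.72. The correlation across genes (which do not count as replicates) was 0.995 within PBS, 0.997 within LPS and 0.988 to 0.990 between the groups. The labelled tissue was checked against lineage markers: 14 of 14 neutrophil, 6 of 6 erythroid, 5 of 5 megakaryocyte and 6 of 8 B-cell markers lay above the upper quartile of genes on every array. Smaller shares did so among macrophage (10 of 15), monocyte (3 of 5), stroma and endothelium (5 of 9), stem and progenitor (1 of 7) and T-cell (0 of 5) markers. Samples in a group were called replicates without saying whether they came from separate mice, so p-values measure the spread between these samples, which may be partly technical.

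Of the 10 genes, only Ccr3 passed the test after LPS, and it fell. The test was limma's moderated comparison across all 19938 genes, with 0.05 as the limit for the p adjusted by Benjamini-Hochberg. Among all genes tested, 3.66% passed in either direction, 1.27% as lower and 2.39% as higher. None of the other 9 genes had an unadjusted p under 0.05, which 15.8% of all genes had in this fit, and their log2 fold changes ran from -0.38 for Mcpt8 to 0.04 for Siglecf. The lowest adjusted p among those 9 was 0.354. The median change of the 10 genes was -0.13 and that of the 9 without Ccr3 -0.11, beside -0.01 over all genes. A negative value was seen for 9 of the 10 genes and for 52.5% of all genes, but for 6 of the 10 without PBS replicate 3 or without LPS replicate 2.

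**Figure D1:**
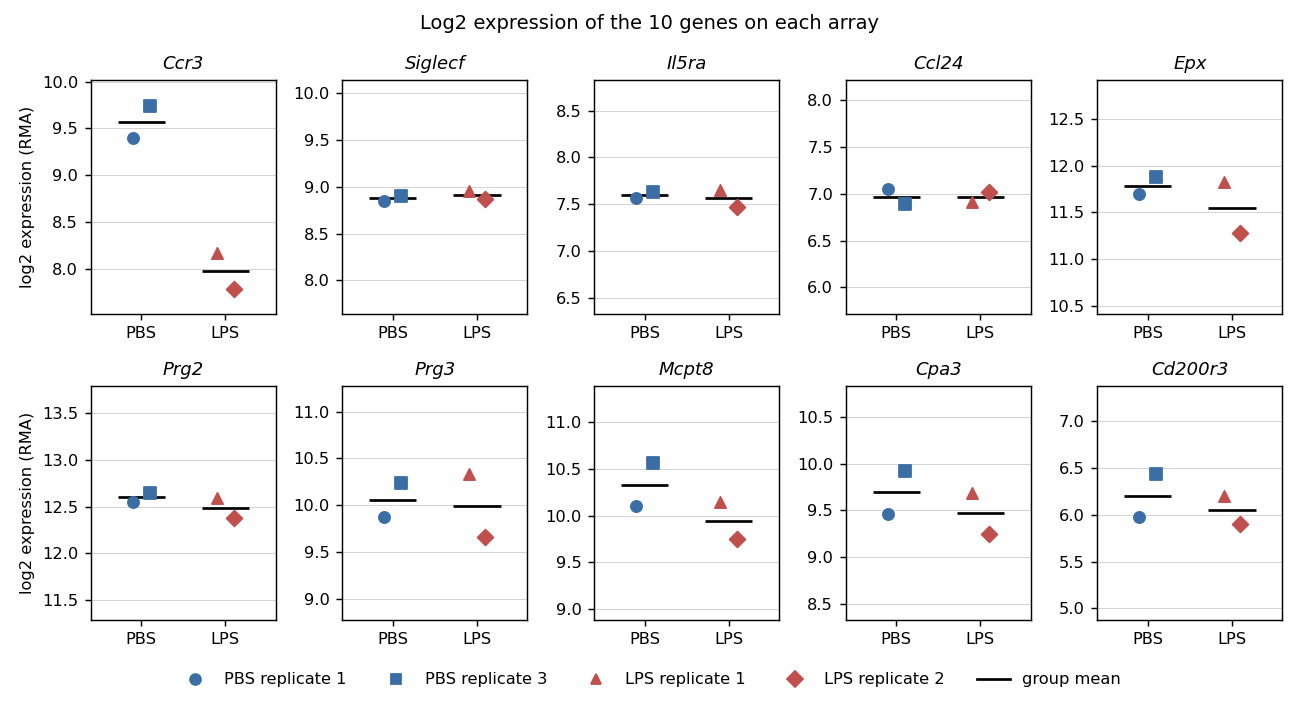
Log2 expression (vertical axis) of each of the 10 genes on the PBS and LPS arrays, 1 symbol per array and a bar at the mean of each group; each panel spans 2.5 log2 units around the mean of its gene. The LPS symbols of Ccr3 (8.17 and 7.78) lie below its PBS symbols (9.40 and 9.74), and in the other 9 panels the groups overlap.

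Ccr3 encodes the eotaxin receptor (GRCm38.p6, chromosome 9, 124017825 to 124031692). Its log2 value was 9.40 in PBS replicate 1, 9.74 in PBS replicate 3, 8.17 in LPS replicate 1 and 7.78 in LPS replicate 2. Both LPS arrays were low and both PBS arrays high, with a gap of 1.23 between the lowest PBS and the highest LPS value. Such a separation of the groups, in either direction, was seen for 44.9% of all genes, and both LPS arrays were below both PBS arrays for 24.5%. The means were 9.57 ± 0.24 in PBS and 7.97 ± 0.27 in LPS (SD, n = 2 each). This gave a log2 fold change of -1.59 (SE 0.157, 95% confidence limits -1.96 to -1.23, limma adjusted p = 0.00137), which is a level 3.01-fold lower, with an interval of 2.34-fold to 3.88-fold. Among all 19938 genes this was the ninth lowest change, with 254 genes past the threshold as lower. With 2 arrays a group, the smallest two-sided p of an exact permutation test is 0.333, so the call rests on the spread that limma borrows from all genes. In a linear model without that borrowing Ccr3 missed the threshold (adjusted p = 0.405), as did every other gene, with 2185 genes at an unadjusted p under 0.05.

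The other surface receptors of eosinophils were measured with intervals that do not reach the change of Ccr3. Siglecf, a sialic acid-binding inhibitory receptor (chromosome 7, 43351341 to 43359475), was at 8.85 and 8.90 in PBS replicates 1 and 3 and at 8.96 and 8.87 in LPS replicates 1 and 2. The 4 arrays thus lay close together and the groups overlapped. Its log2 fold change was 0.04 (SE 0.0892, 95% confidence limits -0.17 to 0.24, limma adjusted p = 0.914). Il5ra, the ligand-binding chain of the interleukin-5 receptor (chromosome 6, 106710375 to 106749037), was at 7.57 and 7.63 in PBS and at 7.66 and 7.47 in LPS. Here LPS replicate 1 was the highest array and LPS replicate 2 the lowest. The Il5ra values lay above the lower quartile of genes on all 4 arrays but within the lowest 43.9% of them. A background level for its probe set was not used, so a low signal may narrow what its interval can show. The log2 fold change was -0.03 (SE 0.0989, 95% confidence limits -0.26 to 0.20, limma adjusted p = 0.934).

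The genomic context of Ccr3, Il5ra and Epx is shown because the first fell and the others did not pass. RefSeq (GRCm38.p6) gave a promoter for 8 of the 10 genes, and the 250 bases before the start are printed 5′ to 3′ on the strand of the gene. Capitals mark the word AGATAA or AGATAG and likewise the word TGATAA or TGATAG, on either strand, letters of the kind bound by GATA factors, a family that includes the eosinophil and mast cell regulators GATA1 and GATA2.
Ccr3, chr9:124021721-124021970, plus strand: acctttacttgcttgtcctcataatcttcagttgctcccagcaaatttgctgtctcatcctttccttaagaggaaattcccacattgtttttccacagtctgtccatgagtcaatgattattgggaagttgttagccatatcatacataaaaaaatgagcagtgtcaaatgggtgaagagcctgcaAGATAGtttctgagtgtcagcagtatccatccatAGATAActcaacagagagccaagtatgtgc
Il5ra, chr6:106749038-106749287, minus strand: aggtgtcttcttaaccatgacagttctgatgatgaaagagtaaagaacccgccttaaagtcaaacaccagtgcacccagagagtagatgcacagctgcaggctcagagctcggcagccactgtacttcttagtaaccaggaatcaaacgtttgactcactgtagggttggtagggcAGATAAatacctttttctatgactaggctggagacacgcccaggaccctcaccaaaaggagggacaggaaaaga
Epx, chr11:87875537-87875786, minus strand: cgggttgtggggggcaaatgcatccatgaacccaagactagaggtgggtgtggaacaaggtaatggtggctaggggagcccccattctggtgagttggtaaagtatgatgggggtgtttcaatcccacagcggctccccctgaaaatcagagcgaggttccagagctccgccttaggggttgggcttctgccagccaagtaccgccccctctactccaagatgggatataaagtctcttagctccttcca
The Ccr3 window holds 2 such words, with first bases 64 and 30 bases before the start, the Il5ra window holds 1, at 74 bases, and the Epx window holds 0. Of the 8 windows 5 hold at least 1 word, namely those of Ccr3, Il5ra, Prg3, Cpa3 and Cd200r3, against 26.5% of the 32851 promoters in the table. At least 2 words stand in the windows of 2 of the 8 genes, Ccr3 and Cd200r3, and in 6.4% of all promoters; the Cd200r3 window holds 3, and that gene did not pass. These are matches of letters only. The start used for Ccr3 lies 4146 bases inside the annotated span of the gene, so the window may lie within a longer transcript. The starts used for Prg3, Mcpt8, Cpa3 and Cd200r3 also lie inside the annotated spans, as does at least part of each window. In Cd200r3 that part holds the words at 39 and 33 bases before the start.

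Ccl24, which encodes the eotaxin-2 ligand of CCR3 and is made by macrophages among other cells (chromosome 5, 135569935 to 135573123), was at 7.05 and 6.89 in PBS and at 6.92 and 7.02 in LPS. The groups overlapped fully, and the log2 fold change was 0.00 (SE 0.0977, 95% confidence limits -0.23 to 0.22, limma adjusted p = 0.995). Its values lay above the lower quartile of genes on all 4 arrays but within the lowest 31.7% of them, and a background level for the probe set was not used here.

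Other ligands of CCR3 moved the opposite way to the receptor in part. Ccl5, a chemokine of T cells and macrophages, was at 10.77 and 10.53 in PBS and at 12.84 and 13.04 in LPS, so that the LPS arrays were high. It rose by 2.29 log2 (SE 0.116, limma adjusted p = 4.79e-05), a 4.88-fold rise. Ccl7, a monocyte-attracting chemokine, was at 7.62 and 7.25 in PBS and at 8.38 and 8.49 in LPS. It rose by 1.00 (SE 0.131, limma adjusted p = 0.0054), and with every probe set of the array in the fit it missed the threshold (adjusted p = 0.0564). Ccl11, which encodes eotaxin-1, had a log2 fold change of 0.08 and Ccl28 one of -0.01, and neither passed. Ccl28 lay below the lower quartile of genes on every array. Thus 2 of the 4 other ligands rose and 0 fell, beside 2.39% and 1.27% of all genes. Their median change of 0.54 lies between the 2 that rose and the 2 that did not pass.

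**Figure D2:**
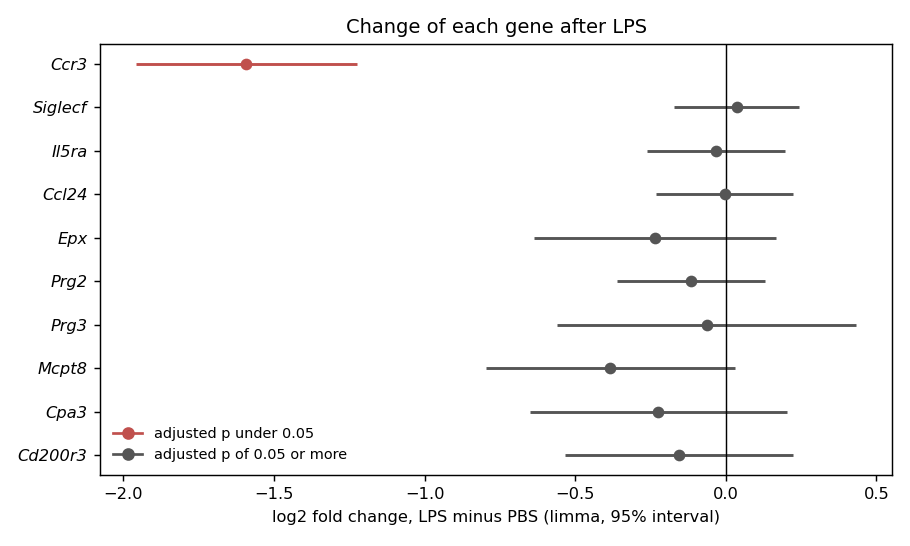
Log2 fold change of each gene, LPS minus PBS (horizontal axis), with its 95% interval from limma; points left of 0 are lower after LPS. The interval of Ccr3 ends at -1.23, and the intervals of the other 9 genes include 0 and lie between -0.80 and 0.43.

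The granule proteins of eosinophils gave no call. Epx, the eosinophil peroxidase (chromosome 11, 87863997 to 87875536), was at 11.69 and 11.88 in PBS and at 11.83 and 11.27 in LPS. LPS replicate 1 lay between the PBS arrays, and LPS replicate 2 was the low one. The log2 fold change was -0.23 (SE 0.172, 95% confidence limits -0.64 to 0.17, limma adjusted p = 0.599), and without LPS replicate 2 it was 0.04. Prg2, which encodes the major basic protein of the granule core (chromosome 2, 84980461 to 84983632), was at 12.55 and 12.64 in PBS and at 12.59 and 12.37 in LPS. It was among the brightest probe sets, above 99.2% of genes on every array. Its log2 fold change was -0.11 (SE 0.105, 95% confidence limits -0.36 to 0.13, limma adjusted p = 0.693). Prg3, its neighbour and homologue (chromosome 2, 84988196 to 84996559), was at 9.87 and 10.24 in PBS and at 10.33 and 9.66 in LPS. The LPS arrays held both the highest and the lowest value. The log2 fold change was -0.06 (SE 0.213, 95% confidence limits -0.56 to 0.43, limma adjusted p = 0.943). Leaving out LPS replicate 2 turned it to 0.27, and leaving out PBS replicate 3 to 0.12.

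Basophil and mast cell genes gave no call either. Mcpt8, a serine protease of basophils (chromosome 14, 56082163 to 56085499), was at 10.10 and 10.56 in PBS and at 10.14 and 9.75 in LPS. PBS replicate 3 was the high array and LPS replicate 2 the low one, with the other arrays close together between them. The log2 fold change was -0.38 (SE 0.178, 95% confidence limits -0.80 to 0.03, limma adjusted p = 0.354), and it was -0.61 without PBS replicate 1 and -0.15 without PBS replicate 3. Cpa3, carboxypeptidase A3 of mast cells and basophils (chromosome 3, 20215616 to 20242209), was at 9.46 and 9.92 in PBS and at 9.68 and 9.25 in LPS. The order of its arrays was mixed in the same way, with a log2 fold change of -0.22 (SE 0.184, 95% confidence limits -0.65 to 0.20, limma adjusted p = 0.646). Cd200r3, an activating receptor of basophils and mast cells (chromosome 16, 44943596 to 45058365), was at 5.98 and 6.43 in PBS and at 6.20 and 5.90 in LPS. All 4 values lay below the lower quartile of genes, so little can be read from its log2 fold change of -0.15 (SE 0.163, 95% confidence limits -0.53 to 0.22, limma adjusted p = 0.747).

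Within groups, most of these genes deviated together. PBS replicate 3 was above PBS replicate 1, and LPS replicate 1 above LPS replicate 2, for the same 9 of the 10 genes, Ccl24 being the exception. Over all genes 28.4% showed both. As the median deviation of the 9 genes without Ccr3 from their own means, the arrays stood at -0.04 in PBS replicate 1, 0.21 in PBS replicate 3, 0.07 in LPS replicate 1 and -0.22 in LPS replicate 2. LPS replicate 1 thus lay between the PBS arrays. Among the marker lists, picked with these values seen, monocyte markers deviated by -0.12, 0.16, 0.09 and -0.16 in that order. Stroma and endothelium markers had the same order with smaller values (-0.05, 0.03, -0.002 and -0.03). In no other marker list was PBS replicate 3 above PBS replicate 1. Neutrophil markers stood at 0.14, 0.05, -0.01 and -0.19, and B-cell markers at 0.12, 0.12, -0.30 and 0.10. The part of these cells in the pattern was not tested.

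**Figure D3:**
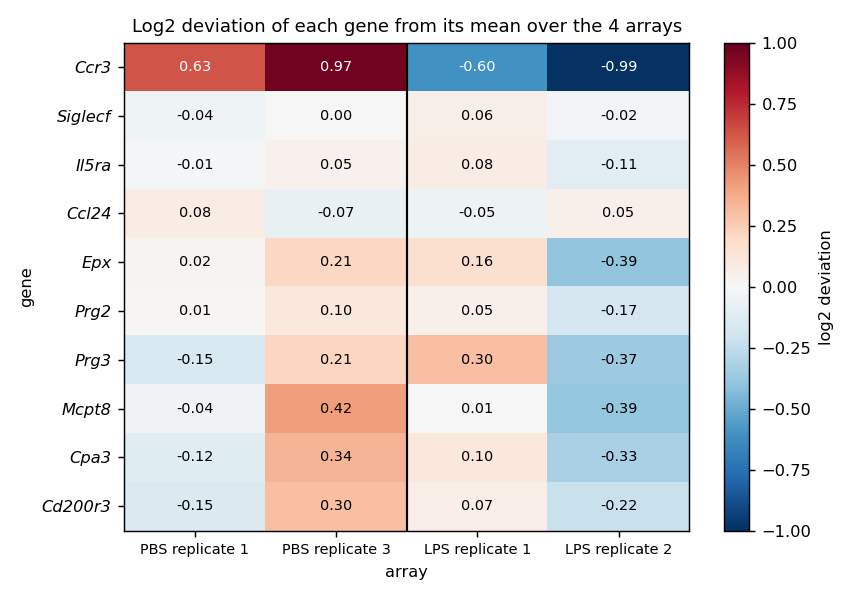
Deviation of each gene (rows) from its own mean over the 4 arrays (columns), in log2 units, red above and blue below the mean; the vertical line parts PBS from LPS. Ccr3 runs from 0.97 in PBS replicate 3 to -0.99 in LPS replicate 2, and Epx, Prg3, Mcpt8, Cpa3 and Cd200r3 are above their mean in PBS replicate 3 and below it in LPS replicate 2.

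Ccr3 was also set against each other gene within the same array, which removes only what Ccr3 and that gene share on an array. The log2 difference between Ccr3 and Epx was -2.29 and -2.14 in PBS and -3.66 and -3.49 in LPS. Between Ccr3 and Mcpt8 it was -0.70 and -0.82 in PBS and -1.98 and -1.97 in LPS. The drop in these differences after LPS ranged over the 9 genes from -1.63 against Siglecf to -1.21 against Mcpt8. The LPS arrays lay below the PBS arrays in all 9 comparisons. These share the Ccr3 values and follow from its fall and the small changes of the other genes, so they add no separate evidence. Each such comparison of 2 arrays with 2 has 0.333 as its smallest exact permutation p.

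Genes with the profile most like that of Ccr3 were sought by the distance between deviations over the 4 arrays. The nearest was Cmbl, a hydrolase gene, at a distance of 0.22 log2, with 8.43 and 8.57 in PBS and 6.97 and 6.82 in LPS. It was followed by the transporter genes Abca8a (0.24) and Abca9 (0.28), by Mrc1 (0.31), the mannose receptor of macrophages, and by the alcohol dehydrogenase gene Adh1 (0.31). Their log2 fold changes ran from -1.72 for Mrc1 to -1.34 for Abca9. No other gene of the 10 was among them. This distance counts the size of a change, so genes with changes of -0.38 to 0.04 could hardly appear, and their absence is no separate result. Of 15 macrophage markers measured, 5 fell, beside 1.27% of all genes, among them Mrc1 and Cd163 (-2.41). Another 2 rose, Spic (1.49) and Adgre1 (0.56), beside 2.39% of all genes. As a list the macrophage markers had a median change of -0.17. Their median deviations were 0.14, 0.02, -0.04 and -0.13 in PBS replicates 1 and 3 and LPS replicates 1 and 2. Their part in the fall of Ccr3 was not tested.

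Further genes of the same lineages were read from lists. Of 5 other eosinophil genes measured, 0 passed, with a median of -0.13 and a range from -0.25 to 0.02. At an unadjusted p under 0.05 there were also 0, and the unmoderated model called 0. Ear6, an eosinophil-associated ribonuclease gene with near-identical relatives that its probes may share, was at 12.35 and 12.67 in PBS and at 12.55 and 12.21 in LPS. Alox15, a lipoxygenase gene, was at 10.71 and 10.98 in PBS and at 10.89 and 10.55 in LPS. Both repeated the order of arrays seen for Epx in that LPS replicate 2 was the lowest. Of 18 other basophil and mast cell genes, 0 passed, with a median of -0.03 and a range from -0.30 to 0.21, and limma gave 1 of them an unadjusted p under 0.05, beside 15.8% of all genes (0 calls in the unmoderated model). Hdc, which makes histamine, had a log2 fold change of 0.21 (limma adjusted p = 0.384) and the basophil protease gene Prss34 one of -0.21 (limma adjusted p = 0.368). Tpsab1, Cma1, Mcpt1, Mcpt2, Mcpt4, Mrgprb2 and Tph1, 7 of the 18, lay below the lower quartile of genes on every array, and the first 6 of them are markers of mature tissue mast cells.

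Cytokine receptors that act on these lineages rose in part in bulk marrow, and which cells carried the rise was not tested. Csf2rb, the beta chain shared by the receptors of interleukin-5, interleukin-3 and GM-CSF, was at 11.25 and 11.20 in PBS and at 11.84 and 11.65 in LPS. It rose by 0.52 (SE 0.0989, limma adjusted p = 0.032), but did not pass with every probe set in the fit (limma adjusted p = 0.13). Without LPS replicate 1 its log2 fold change was 0.43. Csf2rb2, its close homologue for interleukin-3, rose by 0.69 (SE 0.0869, limma adjusted p = 0.00466), and as the sequences are alike the probes of the pair may share signal. Il4ra, the interleukin-4 receptor chain, rose by 0.62 (SE 0.0869, limma adjusted p = 0.00767). Of 18 type 2 cytokine and receptor genes, 3 rose and 0 fell, beside 2.39% and 1.27% of all genes, with a median of 0.12. At an unadjusted p under 0.05 by limma there were 4, beside 15.8% of all genes. Besides the 3 that passed, this included Csf2ra, a GM-CSF receptor chain, which was lower (-0.27). The cytokine genes Il5, Il3, Csf2, Il33 and Tslp lay below the lower quartile of genes on every array, and Il5 had a log2 fold change of 0.05.

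Lineage transcription factors gave 2 rises and 0 falls among 16, beside 2.39% and 1.27% of all genes, with a median of 0.07. Cebpb rose by 0.45 (SE 0.0861, limma adjusted p = 0.0342) and Id1 by 0.44 (SE 0.0916, limma adjusted p = 0.0448). Neither passed with every probe set in the fit (limma adjusted p = 0.12 and 0.147). Without PBS replicate 1 their log2 fold changes were 0.44 and 0.38. Gata1, the factor needed for eosinophils, had a log2 fold change of -0.10, Gata2 one of 0.02 and Cebpe one of -0.20, and none of the 3 passed. In the families of Cd200r3 and Siglecf, 0 of 12 relatives passed by limma (5 at an unadjusted p under 0.05, beside 15.8% of all genes, and 0 calls in the unmoderated model), with changes from -0.51 for Cd200r1 to 0.72 for the ligand gene Cd200. The 2 with the highest means were Cd33 (-0.35, limma adjusted p = 0.172) and Siglece (0.43, limma adjusted p = 0.0684). The log2 fold change of Siglece was 0.51 without PBS replicate 1 and 0.35 without PBS replicate 3.

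**Figure D4:**
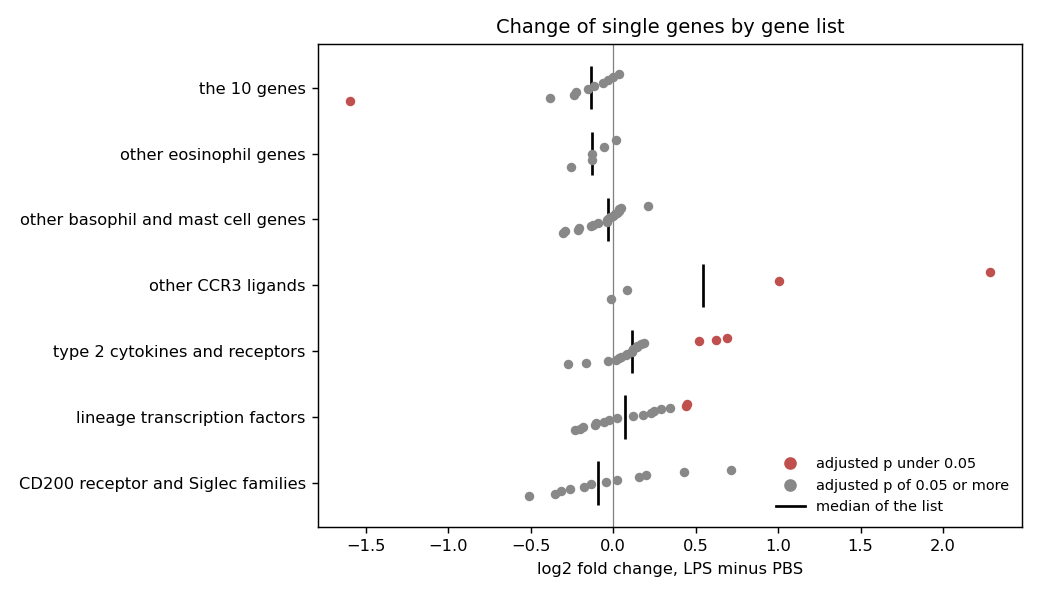
Log2 fold change, LPS minus PBS (horizontal axis), of every measured gene in 7 lists, 1 point per gene, red where the adjusted p was under 0.05, with a bar at the median of each list. Red points stand at -1.59 among the 10 genes (Ccr3), at 1.00 and 2.29 among the other CCR3 ligands (Ccl7 and Ccl5), at 0.52 to 0.69 among cytokine receptors and at 0.44 and 0.45 among transcription factors.

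Neighbouring genes were read for 3 of the loci, a choice made after the values of the 10 genes were seen. Within 250 kb of Ccr3 lie 7 other measured protein-coding genes, most of them chemokine receptors, and 0 passed, with 2 at an unadjusted p under 0.05 (15.8% of all genes), namely Ccr9 (0.34) and Cxcr6 (-0.32). Ccr1, another receptor for CCL5 and CCL7, had a log2 fold change of 0.32, and Ccr2, the monocyte receptor, one of -0.09. Within 250 kb of Mcpt8, in the cluster of granzymes and mast cell proteases, 1 of 17 genes passed (3.66% of all genes), the cytotoxic protease gene Gzmb. It was at 6.90 and 6.99 in PBS and at 10.76 and 10.81 in LPS and rose by 3.84 (SE 0.0899, limma adjusted p = 2.49e-06), whereas Ctsg beside Mcpt8 had a log2 fold change of -0.09. Within 250 kb of Prg2, 1 of 13 genes passed (3.66% of all genes), P2rx3, a gene for an ATP-gated channel, which rose by 0.53 (limma adjusted p = 0.0282).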

How the data were processed

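The authors deposited log2 expression values made with RMA, per the submitters' processing notes; the sources used here give no RMA version or probe annotation, and the log2 scale was read from the values (2.76 to 14.52). Of 35556 probe sets, 21789 had 1 gene symbol in the platform annotation, 1621 had several and 12146 had none named here; 21698 had an Entrez identifier in the RefSeq table of GRCm38.p6 and 0 symbols were updated. The brightest probe set stood for each of 999 genes with several, which left 19938 genes.

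LPS and PBS were compared by the two-sided test of limma 3.58.1 under R 4.3.3 (lmFit, then eBayes; all 4 arrays, no covariate; 5.59 prior and 2 residual degrees of freedom), with Benjamini-Hochberg adjustment over all genes. The fit was tested on simulated data. Arrays have no read depth; their number limits the precision. Promoter words were searched in Python 3.11.15 and figures drawn with matplotlib 3.10.9.

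The 10 genes and the lists were chosen with earlier results of these data known. Named were the 10 genes, up to 3 rising and 3 falling genes past the threshold in each list (or the 2 brightest where none passed) and the 5 genes nearest in profile to a gene that passed; other genes named from the lists were chosen after their values were seen. Marker lists covered macrophages, monocytes, neutrophils, erythroid cells, megakaryocytes, B cells, T cells, stem and progenitor cells, and stroma with endothelium. Alternatives were median centring, every probe set in the fit, a filter on low values, an intensity trend with a robust prior, an unmoderated model, the mean of probe sets, an adjusted p under 0.01 and leaving out each array.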

Additional observations from a re-analysis of the deposited data

How the results depend on the processing

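No paired analysis was possible because the groups share 1 replicate number only. With every array in the fit, Ccr3 passed at the limit of 0.05 in each limma alternative, with adjusted p-values from 0.000574 to 0.0258. The limit of 0.01 reused the main fit (limma adjusted p = 0.00137) and is no separate test. In these alternatives the log2 fold change of Ccr3 stayed at -1.59 by construction, apart from -1.58 with median centring. Leaving out 1 array leaves a group without replicates, so only the log2 fold change of Ccr3 is given there, -1.78 to -1.40. In the unmoderated linear model 0 of the 10 genes passed, and over all genes 0 were higher and 0 lower. The other 9 genes passed in no alternative with every array in the fit. With 1 array left out the sign turned for Ccl24 (-0.079 to 0.072, and 0.0033 with median centring), Epx (-0.51 to 0.043), Prg3 (-0.40 to 0.27), Siglecf (-0.0058 to 0.079), Il5ra (-0.12 to 0.060), Cpa3 (-0.45 to 0.0069) and Cd200r3 (-0.38 to 0.071), and also for Ear6 (-0.30 to 0.042) and Alox15 (-0.30 to 0.046). Genes lower after LPS numbered 254 over all genes, 63 with every probe set in the fit, 58 at an adjusted p under 0.01 and 127 to 423 with 1 array left out; those higher numbered 476, and 286 at an adjusted p under 0.01. The filter on low values, which left fewer genes, moved the median of the other CCR3 ligands from 0.54 to 1.00 and that of the CD200 receptor and Siglec families from -0.09 to -0.16. With 1 array left out, list medians ran from -0.35 to -0.0063 for the 10 genes, -0.26 to -0.013 for other eosinophil genes, -0.055 to -0.013 for other basophil and mast cell genes, 0.088 to 0.11 for type 2 cytokines and receptors, 0.0031 to 0.16 for lineage transcription factors, -0.14 to 0.023 for CD200 receptor and Siglec families, -0.22 to -0.076 for macrophage markers, -0.25 to 0.085 for monocyte markers, -0.28 to -0.068 for neutrophil markers, -0.26 to -0.11 for erythroid markers, -0.050 to 0.048 for megakaryocyte markers, -0.42 to -0.016 for B cell markers, -0.21 to -0.083 for T cell markers, -0.21 to -0.026 for stem and progenitor markers and -0.081 to 0.036 for stroma and endothelium markers, so that the sign turned for the CD200 receptor and Siglec families and for monocyte, megakaryocyte and stromal markers; the cause was not tested. With every array in place, the marker medians were 0.04 for stroma and endothelium, -0.02 for megakaryocyte, -0.09 for monocyte, -0.14 for stem and progenitor, -0.15 for T cell, -0.17 for neutrophil, -0.19 for erythroid and -0.24 for B cell markers, of which 1 monocyte marker rose and 1 neutrophil and 1 stromal marker fell. Signals below the lower quartile of genes, such as that of Cd200r3, limit what a small change can show.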
